A study of Mus musculus with 6 samples.

Results

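The genes described here are the mouse receptors of the colony-stimulating factors, their ligands, and the related receptors FLT3 and KIT, 10 genes in all of the 19938 measured: Csf2rb, Csf2rb2, Csf2ra, Csf1r, Csf3r, Flt3, Kit, Csf1, Csf2 and Csf3. They were selected from their gene symbols as members of this family, and the family itself was chosen from the difference of Csf2rb between the groups on these arrays. The values of Csf2rb are therefore a description with no test. Expression was profiled in splenic B cells of 3 p80HT transgenic mice and 3 wild-type (WT) littermates (C57BL/6J x SJL/J mice), with 1 Affymetrix Mouse Gene 1.0 ST array per mouse. All mice were 1 year old, and the p80HT mice were positive for serum M-protein, a monoclonal immunoglobulin. p80HT is a truncated mutant of the transcription factor NF-κB2 found in lymphoma, and its human coding sequence was driven by an H-2Kb promoter and an immunoglobulin μ enhancer, which direct it to both T and B lymphocytes. B cells were taken with an antibody to B220, a form of CD45, on magnetic beads, and WT mice went through the same selection.

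Colony-stimulating factors are secreted proteins that keep myeloid cells alive and make them divide and mature. GM-CSF (Csf2) binds a specific α chain (Csf2ra) that pairs with the common β chain (Csf2rb), which also serves interleukin-3 and interleukin-5 and passes the signal on through JAK2 and STAT5. Mice have a second β gene, Csf2rb2, a duplicate next to Csf2rb whose product serves the interleukin-3 receptor alone. G-CSF (Csf3) acts on neutrophils and their precursors through Csf3r, while Csf1r (for M-CSF, the product of Csf1), Flt3 and Kit are related receptor tyrosine kinases of macrophages, dendritic cells and their progenitors, and mast cells and blood stem cells, respectively.

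All values are log2 probeset signals, on which a difference of 1 is a doubling, and each gene was read at 1 probeset. Levels of different probesets are not on a common scale and were not compared. The words rise and fall are kept for genes past the threshold of the study's methods, a change of 1.5-fold or more whose p, before adjustment and here from limma, is under 0.01. Over all genes, 436 passed it, or 2.19%, with 243 higher (1.22%) and 193 lower (0.968%) in p80HT mice, and the split was 183 higher and 342 lower with each array centred on its median. The array of p80HT replicate 3 stood apart, since its correlation with the other 5 across genes was 0.914 to 0.925 against 0.981 or more among these, and its mean level of 7 salivary and lacrimal gland genes was 12.16 against at most 6.87 elsewhere. The differences of the 10 genes are therefore also given without it, as are some of other genes, and all genes then gave 401 higher (2.01%) and 290 lower (1.45%). Of 10 measured B cell markers, none passed the threshold in either direction, and 3 had a p under 0.05 in limma before adjustment, which 10.2% of all genes had. In 8 of the 10 every p80HT array was below every WT array, which 11.9% of all genes showed. The mean level of the 10 was 12.44 to 12.66 in WT mice and 12.23, 12.09 and 10.81 in p80HT replicates 1, 2 and 3. Ms4a1, the gene of the B cell antigen CD20, was at 12.99 to 13.12 in WT mice and at 13.03, 12.88 and 11.77 in p80HT mice, and Ptprc, the CD45 gene, differed by -0.17. Without p80HT replicate 3 all 10 markers were lower and 2 fell, Cr2 (-1.13, adjusted p = 0.0021) and Fcer2a (-0.996, adjusted p = 0.0037), complement and IgE receptor genes that differed by -1.99 and -1.80 with all arrays.

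Of the 10 genes, 1 rose in p80HT B cells, none fell and 9 did not pass, and the 1 was Csf2rb, from which the family was chosen, so nothing is read from that count. Of the other 9 genes none rose and none fell, and 3 had a p under 0.05 in limma before adjustment (Csf2ra, Csf1r and Kit), against 10.2% of all genes. Their difference was above 0 for 8, as for 45.1% of all genes, with a median of 0.46 against -0.02 over all genes. In 4 of these 9 every p80HT array was higher than every WT array, which 8.86% of all genes showed, and in none was it lower, which 11.9% showed. None of the 9 reached an adjusted p under 0.05 (Benjamini-Hochberg, over the whole table), which 0.0552% of all genes did. Without p80HT replicate 3, 1 of the 9 rose, Kit, against 2.01% of all genes. All 9 differences were then above 0, with a median of 0.39 against 0.04 over all genes, and 3 genes passed the adjusted p (Csf2ra, Csf1r and Kit), where 4.67% of all genes did.

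**Figure D1:**
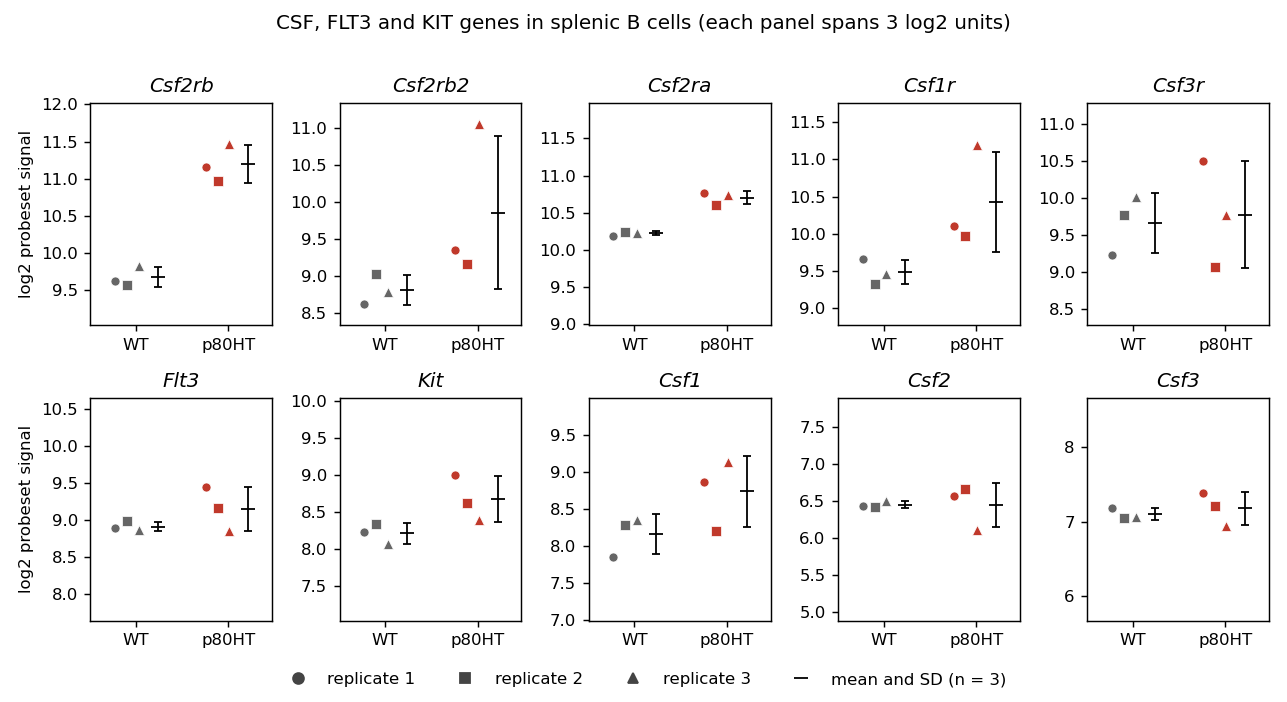
Log2 probeset signal (vertical axis) of the 10 genes in WT and p80HT splenic B cells, 1 point per mouse with the group mean and SD (n = 3); each panel spans 3 log2 units at its own height. The p80HT points of Csf2rb, between 10.97 and 11.47, all lie above the WT points, between 9.57 and 9.83, and the triangle of p80HT replicate 3 lies apart for Csf2rb2 and Csf1r.

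The common β chain gene Csf2rb (probeset 10425066) was at 9.62, 9.57 and 9.83 in WT replicates 1, 2 and 3 and at 11.16, 10.97 and 11.47 in p80HT replicates 1, 2 and 3. The groups were more than 1 log2 unit apart, and p80HT replicate 3 lay only 0.31 above the next array. The means were 9.67 ± 0.14 (SD, n = 3) in WT and 11.20 ± 0.26 (SD, n = 3) in p80HT, a difference of 1.52 (SE 0.17) or 2.88-fold. Leaving out any 1 array gave differences from 1.39 to 1.64, the lowest of them without p80HT replicate 3. In bulk RNA of this kind, more cells of a type and more RNA per cell cannot be told apart.

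Csf2rb2 (probeset 10430302), the interleukin-3 β chain gene, was at 8.63, 9.04 and 8.79 in WT mice and at 9.36, 9.17 and 11.05 in p80HT mice. All 3 p80HT arrays were above the WT arrays, but replicates 1 and 2 exceeded the highest WT array by little and replicate 3 lay 1.69 above every other array. The means were 8.82 ± 0.21 and 9.86 ± 1.03 (SD, n = 3), the widest p80HT spread among the 10 genes. The difference was 1.04 (SE 0.47, 2.06-fold) and did not pass (limma adjusted p = 0.509). Without p80HT replicate 3 it was 0.45 (SE 0.14, adjusted p = 0.101), below 1.5-fold.

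Side by side, Csf2rb changed more than Csf2rb2 on p80HT replicates 1 and 2 and less on replicate 3. Relative to its WT mean, Csf2rb was 1.49, 1.29 and 1.80 higher on the p80HT arrays, and Csf2rb2 was 0.54, 0.35 and 2.23 higher. Within an array, Csf2rb minus Csf2rb2 was 1.00, 0.53 and 1.04 in WT mice and 1.80, 1.79 and 0.42 in p80HT mice, where only the change of this quantity between groups can be read, because the probesets differ. Replicates 1 and 2 were above all WT arrays and replicate 3 was below them. The change was 0.48 (SE 0.49), less than the pooled SD of 0.60, and 0.94 (SE 0.21) without p80HT replicate 3. The genes are near-identical duplicates, so probes of one may also read the other, which was not tested.

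**Figure D2:**
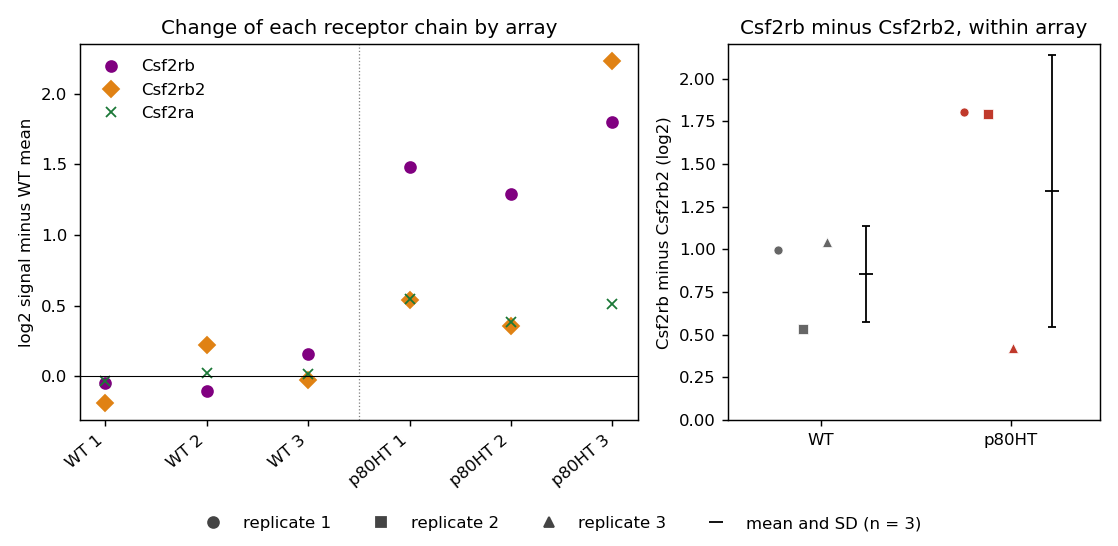
Left, log2 signal of Csf2rb, Csf2rb2 and Csf2ra on each array minus the gene's WT mean; right, Csf2rb minus Csf2rb2 within each array, with the group mean and SD (n = 3). Csf2rb was 1.29 to 1.80 above its WT mean on the p80HT arrays, while Csf2rb2 reached 2.23 on replicate 3 only.

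The α chain gene of the GM-CSF receptor, Csf2ra, was at 10.19, 10.24 and 10.23 in WT mice and at 10.77, 10.60 and 10.73 in p80HT mice. It had the narrowest spread of the 5 genes whose groups did not overlap, with SDs of 0.027 and 0.087, and p80HT replicate 3 lay between the other p80HT arrays. The difference was 0.48 (SE 0.12), or 1.40-fold, and stayed under the 1.5-fold limit, although its p before adjustment was under 0.01 (limma adjusted p = 0.263). Without p80HT replicate 3 it was 0.47 (SE 0.11, adjusted p = 0.0374).

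**Figure D3:**
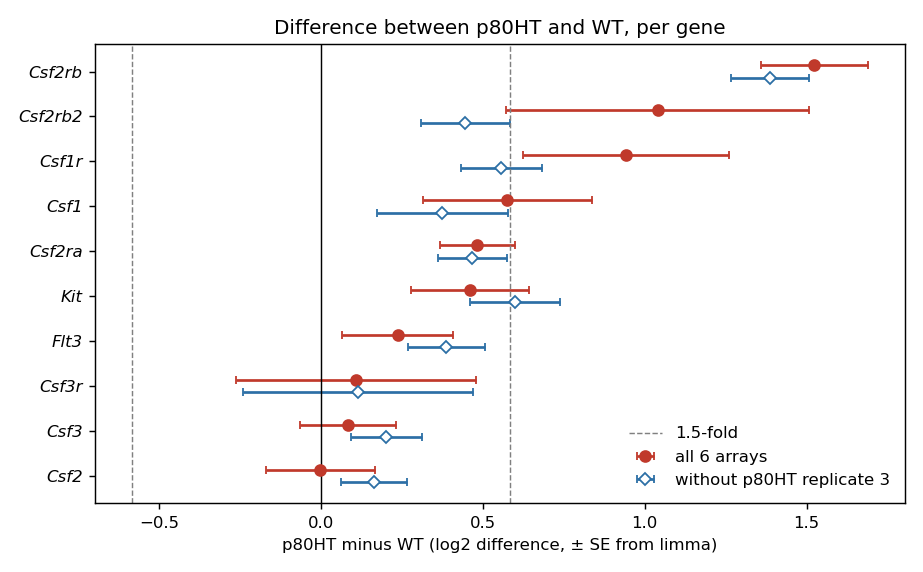
Difference between p80HT and WT (horizontal axis, log2, with the SE from limma) for each gene, with all 6 arrays (circles) and without p80HT replicate 3 (diamonds); dashed lines mark 1.5-fold. Csf2rb lies at 1.52 and 1.39, Csf2ra hardly moved between the fits (0.48 and 0.47), and Csf2rb2 and Csf1r came closer to 0 without that array.

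Promoter windows of RefSeq (GRCm38.p6), 250 bases before to 50 bases after the start, were found for 7 of the 10 genes. They were searched on both strands for the κB consensus, for TTCNNNGAA (the letters of a STAT site), for GAGGAA (those of the PU.1 kind of ETS site), for AGATAA (the letters of a GATA factor site) and for TGTGGT (the RUNX kind). No window of Csf2rb, Csf1r or Csf3 was searched, so nothing is known here of matches in them. The windows of Csf2rb2 and Csf2ra are shown as the other chains of the GM-CSF and interleukin-3 receptors, and those of Csf1 and Csf3r as the 2 of the 7 genes that hold a κB match. They lie at chr15:78305672-78305971, chr19:61228369-61228668 and chr3:107760420-107760719 on the minus strand and at chr4:126024409-126024708 on the plus strand, and capitals mark the matches.
Csf2rb2: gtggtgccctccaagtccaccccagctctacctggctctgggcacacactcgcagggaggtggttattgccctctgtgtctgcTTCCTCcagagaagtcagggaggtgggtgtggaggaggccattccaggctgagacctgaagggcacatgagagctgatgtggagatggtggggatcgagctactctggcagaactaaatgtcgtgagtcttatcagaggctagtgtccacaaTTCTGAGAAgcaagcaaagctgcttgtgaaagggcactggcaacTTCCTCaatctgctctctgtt
Csf2ra: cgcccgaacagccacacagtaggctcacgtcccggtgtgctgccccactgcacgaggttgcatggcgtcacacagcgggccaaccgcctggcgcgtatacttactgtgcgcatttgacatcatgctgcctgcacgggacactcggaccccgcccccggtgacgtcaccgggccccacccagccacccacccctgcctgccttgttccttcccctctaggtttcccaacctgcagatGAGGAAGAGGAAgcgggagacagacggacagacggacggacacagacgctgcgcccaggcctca
Csf1: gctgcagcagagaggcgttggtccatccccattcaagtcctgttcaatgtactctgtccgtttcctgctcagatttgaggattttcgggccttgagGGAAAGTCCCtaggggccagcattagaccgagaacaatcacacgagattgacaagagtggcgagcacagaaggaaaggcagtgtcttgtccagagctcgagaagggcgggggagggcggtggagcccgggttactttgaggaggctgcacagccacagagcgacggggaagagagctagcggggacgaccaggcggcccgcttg
Csf3r: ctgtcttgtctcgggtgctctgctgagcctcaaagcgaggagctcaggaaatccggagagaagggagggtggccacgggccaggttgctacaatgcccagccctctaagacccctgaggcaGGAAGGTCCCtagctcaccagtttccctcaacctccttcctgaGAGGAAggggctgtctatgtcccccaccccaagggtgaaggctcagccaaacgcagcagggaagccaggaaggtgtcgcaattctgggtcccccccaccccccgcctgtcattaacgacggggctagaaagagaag
Counting from 0 at the start base, the Csf2rb2 window holds a STAT match at -15 and GAGGAA, read on the other strand, at -167 and 29. In the Csf2ra window GAGGAA occurs at -14 and again at -8, in the Csf1 window the κB match is at -154, and the Csf3r window holds a κB match at -129 and GAGGAA at -86. Over all 32851 windows of this length in the table, 8.46% hold the κB consensus, 8.30% the STAT letters and 28.3% GAGGAA, so matches of these kinds are common. Among the remaining windows, those of Kit hold GAGGAA, that of Csf2 holds AGATAA, and that of Flt3 holds none of the letters searched. Of all windows, 11.2% hold AGATAA and 16.8% hold TGTGGT. A match describes the sequence only, and binding was not measured.

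Among the tyrosine kinase receptors, Csf1r, the M-CSF receptor of monocytes and macrophages, was at 9.66, 9.33 and 9.46 in WT mice and at 10.11, 9.97 and 11.20 in p80HT mice. The groups did not overlap, and p80HT replicate 3 lay 1.09 above all other arrays. The difference of 0.94 (SE 0.32, 1.92-fold) did not pass (limma adjusted p = 0.399). Without that array the difference was smaller but more even, 0.56 (SE 0.12, adjusted p = 0.036), just below 1.5-fold, and without p80HT replicate 2 it passed, at 1.17.

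Kit, the stem cell factor receptor, was at 8.23, 8.34 and 8.07 in WT mice and at 9.0, 8.62 and 8.39 in p80HT mice. Again no arrays overlapped, but here p80HT replicate 3 was the lowest of its group. The difference of 0.46 (SE 0.18, 1.38-fold) did not pass (limma adjusted p = 0.462). It rose, by 0.60 (SE 0.14, adjusted p = 0.0408), without that array.

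Flt3, the receptor of lymphoid and dendritic progenitors, was at 8.89, 8.99 and 8.87 in WT mice and at 9.44, 9.16 and 8.85 in p80HT mice. Replicates 1 and 2 were above the WT arrays and replicate 3 was level with them, so the groups overlapped. The difference was 0.24 (SE 0.17, limma adjusted p = 0.685), and 0.39 (SE 0.12, adjusted p = 0.0998) without that array.

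Csf3r, the G-CSF receptor, was at 9.23, 9.76 and 10.02 in WT mice and at 10.50, 9.07 and 9.77 in p80HT mice. The p80HT range enclosed the WT range, with a difference of 0.11 (SE 0.37, limma adjusted p = 0.987), also 0.11 without p80HT replicate 3. Its WT mice had the largest SD of the 10 genes, 0.40. Neutrophil markers (12 genes) varied among WT mice too, with mean levels of 8.46, 9.48 and 10.45 against 10.68, 10.10 and 7.69 in p80HT mice, and their part in the Csf3r values was not tested. The leading genes of that list, Ngp and S100a8, differed by -0.40 and -0.04, and by 0.74 and 1.11 without p80HT replicate 3. The list's median moved from -0.22 to 0.83 without that array, and all 12 genes were then higher.

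Of the ligand genes, Csf1, which encodes M-CSF, was at 7.85, 8.28 and 8.36 in WT mice and at 8.87, 8.21 and 9.14 in p80HT mice. p80HT replicate 2 lay within the WT range and the other p80HT arrays above it. The difference of 0.58 (SE 0.26, 1.49-fold) did not pass (limma adjusted p = 0.514), was 0.37 without p80HT replicate 3, and passed, at 0.84, without p80HT replicate 2.

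Csf2, which encodes GM-CSF, was at 6.43, 6.41 and 6.50 in WT mice and at 6.56, 6.66 and 6.11 in p80HT mice. The p80HT arrays lay on both sides of the WT arrays, and the difference was -0.0023 (SE 0.17, limma adjusted p = 0.999). Csf3, the G-CSF gene, was at 7.19, 7.05 and 7.06 in WT mice and at 7.38, 7.22 and 6.95 in p80HT mice, a difference of 0.083 (SE 0.15, adjusted p = 0.948) with overlapping groups. Without p80HT replicate 3 the differences were 0.16 for Csf2 and 0.20 for Csf3. For these ligands the sign of the difference turned with single arrays, so no direction was seen.

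In order of their difference the genes ran from Csf2rb (1.52) through Csf2rb2 (1.04), Csf1r (0.94), Csf1 (0.58), Csf2ra (0.48), Kit (0.46), Flt3 (0.24), Csf3r (0.11) and Csf3 (0.083) to Csf2 (-0.0023). Each gene lay closer to the next than their SEs combined in quadrature, from Csf2rb and Csf2rb2 (0.48 apart, combined SE 0.50) to Csf3 and Csf2 (0.085 apart, combined SE 0.22).

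Over the 6 arrays, the genes whose values followed Csf2rb most closely among 9968 genes with a mean above the median gene were Clic4 (Pearson r = 0.997), an intracellular channel protein gene, Penk (0.995), the proenkephalin gene, Rbm47 (0.994), Epn2 (0.993) and Tnfrsf18 (0.992), the gene of the receptor GITR. Their p80HT minus WT differences were 0.62 for Clic4, 2.53 for Penk, 1.07 for Rbm47, 0.54 for Epn2, which did not pass, and 0.77 for Tnfrsf18. Of its own family, Csf2ra followed Csf2rb best (r = 0.980, rank 27 among the genes compared), then Csf1r (0.860, rank 407), Csf1 (0.786, rank 732), Csf2rb2 (0.764, rank 820), Kit (0.666, rank 1313), Flt3 (0.435, rank 2357) and Csf3r (0.201, rank 3290). Csf2 and Csf3 were below the median gene and were not ranked. The arrays fall into the groups that differ in Csf2rb, so these correlations are a description and carry no p.

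Among the protein-coding genes of chromosome 15 in RefSeq order (GRCm38.p6), Csf2rb2 and Csf2rb stand next to each other between Ncf4, which encodes a subunit of the phagocyte oxidase, and Tex33. Of the 3 measured protein-coding genes on either side, none passed the threshold. Ncf4 was at 10.67, 10.92 and 10.92 in WT mice and at 10.82, 10.60 and 9.98 in p80HT mice, a difference of -0.37 (SE 0.23, limma adjusted p = 0.624), so the gene beside Csf2rb2 was lowest on the array where Csf2rb2 was highest. Pvalb, which encodes parvalbumin, differed by 0.60 (SE 0.33, adjusted p = 0.58), and by 0.22 without p80HT replicate 3. Ift27 (0.03), Tex33 (-0.10), Tst (0.04) and Mpst (0.11) lay close to 0.

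**Figure D4:**
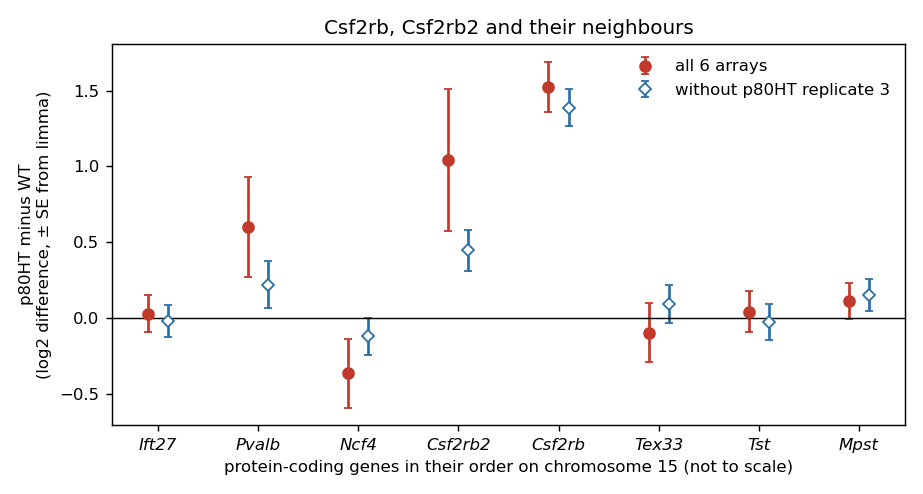
Difference between p80HT and WT (vertical axis, log2, with the SE from limma) for Csf2rb2, Csf2rb and the 3 measured protein-coding genes on either side, in their order on chromosome 15, with all 6 arrays (circles) and without p80HT replicate 3 (diamonds). Csf2rb (1.52) stands above its neighbours Ncf4 (-0.37) and Tex33 (-0.10).

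Of 7 genes for the other chains and ligands of these receptors, none rose and none fell, none had a p under 0.05 in limma before adjustment, and the median difference was 0.03. Il3ra, the α chain gene of the interleukin-3 receptor, differed by 0.11 (SE 0.11, limma adjusted p = 0.836). Il5ra, the α chain gene of the interleukin-5 receptor, was at 9.37, 9.33 and 9.65 in WT mice and at 10.68, 10.31 and 7.41 in p80HT mice. Replicates 1 and 2 were above and replicate 3 far below every WT array, so the difference was 0.01 (SE 0.78), and without p80HT replicate 3 Il5ra rose, by 1.04. It was the 1 of the 7 genes that rose in that fit, against 2.01% of all genes. Kitl, which encodes the ligand of KIT, was at 5.56, 5.79 and 5.67 in WT mice and at 5.69, 6.06 and 8.33 in p80HT mice, and its difference of 1.02 (adjusted p = 0.622) was 0.20 without that array. Il3 differed by -0.22, Il5 by 0.03, Il34 by 0.19 and Flt3l by -0.21, and none of them passed.

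**Figure D5:**
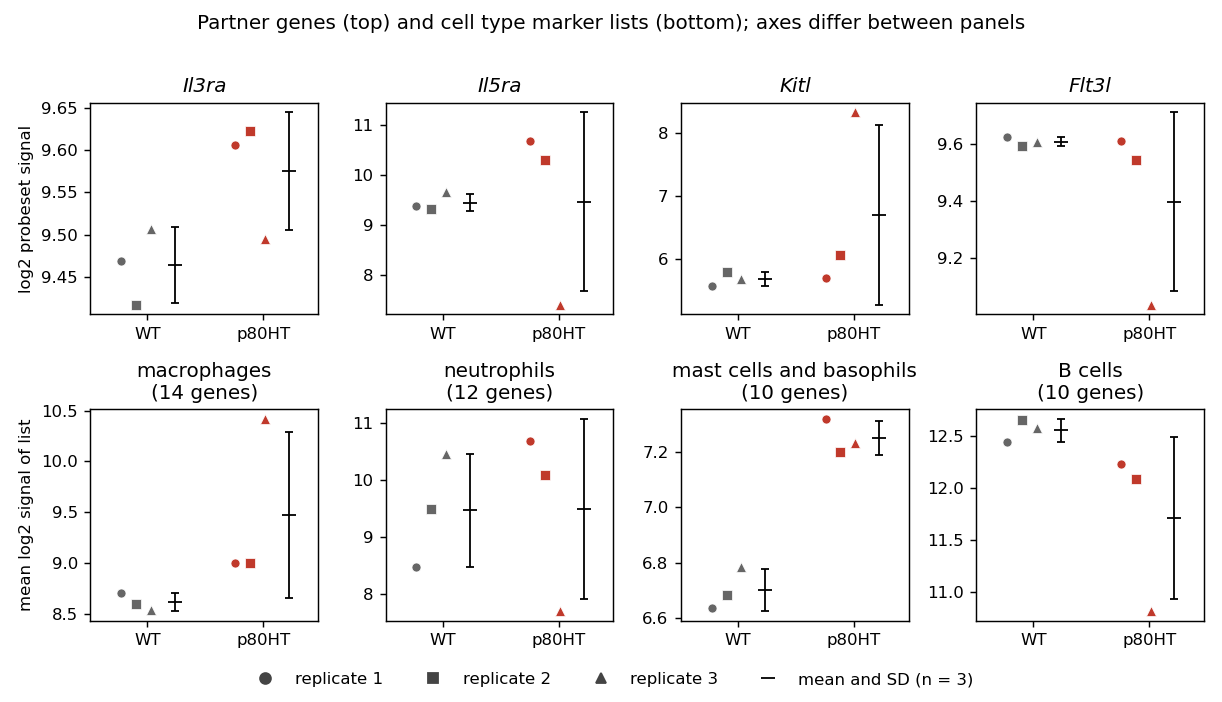
Log2 signal of Il3ra, Il5ra, Kitl and Flt3l (top) and mean log2 signal of the marker lists of macrophages, neutrophils, mast cells and basophils, and B cells (bottom), 1 point per mouse with the group mean and SD (n = 3); the vertical axes differ between panels. Mast cell and basophil markers lay at 7.20 to 7.32 in p80HT mice and 6.64 to 6.78 in WT mice, a mean over genes that differed between the p80HT arrays. The array of p80HT replicate 3 lies apart for Il5ra, Kitl, Flt3l, the macrophage list and the B cell list (10.81 against 12.09 to 12.66 elsewhere). It is also the lowest for the neutrophil list (7.69).

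Of 25 measured signal transducers and brakes downstream of these receptors, none rose and none fell, 2 had a p under 0.05 in limma before adjustment (Gab2 and Ptpn6), a share under the 10.2% of all genes, and the median difference was -0.06. Jak2, the kinase bound to the β chains, differed by 0.10, Jak1 by -0.20 and Stat5a by 0.01. In 2 of the 25 genes the p80HT arrays were all above the WT arrays, which 8.86% of all genes showed. They were Gab2 (0.70, limma adjusted p = 0.421), an adaptor protein gene, and Ptpn11 (0.30, adjusted p = 0.489), a phosphatase gene. Without p80HT replicate 3 the differences of Gab2 and Ptpn11 were 0.41 and 0.24. In 5 the p80HT arrays were all below, which 11.9% of all genes showed: Jak1, Syk (-0.54, and -0.21 without p80HT replicate 3), Ptpn6 (-0.29), Cbl (-0.33) and Sh2b3 (-0.50, and -0.17 without it).

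Among 18 target genes of CSF signalling, 1 rose and 1 fell, against 1.22% and 0.968% of all genes, and the median difference was 0.06. Ccnd2, the cyclin D2 gene, was at 10.22, 10.08 and 10.26 in WT mice and at 11.17, 11.40 and 12.10 in p80HT mice, a rise of 1.37 (SE 0.24, limma adjusted p = 0.154). Gfi1, a transcriptional repressor gene, was at 8.97, 9.22 and 9.09 in WT mice and at 8.22, 8.24 and 7.96 in p80HT mice, a difference of -0.96 (SE 0.14, adjusted p = 0.0979). Both genes had no overlap between groups and passed without p80HT replicate 3 as well, at 1.10 and -0.87. In 4 of the 18 genes every p80HT array was above every WT array and in 2 below, against 8.86% and 11.9% of all genes. Pim1 (0.15, and 0.58 without p80HT replicate 3), Pim2 (0.10) and Bcl2 (0.14), a pair of kinase genes and a survival gene, did not pass. Without that array Il2ra also rose (0.74) and Junb also fell (-0.77), so 2 rose and 2 fell, against 2.01% and 1.45% of all genes.

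None of 10 myeloid transcription factor genes passed in either direction, and the median difference was 0.09. In limma 1 had a p under 0.05 before adjustment, against 10.2% of all genes: Runx1 (-0.63, and -0.40 without p80HT replicate 3). Spi1, which encodes PU.1, differed by 0.02, Cebpa by 0.80 (limma adjusted p = 0.55) and Cebpb by -0.14. Cebpa was at 8.94 on p80HT replicate 3 and between 7.00 and 7.42 on the other 5 arrays, and its difference was 0.29 without it. Cebpe (0.62) and Gata1 (0.70) rose when that array was left out, 2 of the 10 genes against 2.01% of all genes.

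Since the cells were a B220 selection, markers of cells that carry these receptors, and of T cells and erythroid cells, were read beside them. Macrophage markers (14 genes) had mean levels of 8.54 to 8.71 in WT mice, of 9.0 in p80HT replicates 1 and 2, and of 10.42 in replicate 3. Of these genes 13 were higher in p80HT mice, against 45.1% of all genes, and 2 rose, Adgre1 (0.72) and Vsig4 (0.63), against 1.22% of all genes. On p80HT replicate 3, 11 were at their highest, against 27.8% of all genes. That array was also the highest for 4 of the 10 genes, Csf2rb, Csf2rb2, Csf1r and Csf1. It was the highest for all 11 T cell markers, all 9 fibroblast and stroma genes and all 7 salivary and lacrimal gland genes as well. Cd68, the macrophage marker with the highest mean, was at 10.83, 10.83 and 10.81 in WT mice and at 11.28, 11.06 and 12.51 in p80HT mice, and Hmox1, the next, differed by 0.37. Without p80HT replicate 3, 3 rose, against 2.01% of all genes: Adgre1 (0.92), Vsig4 (0.61) and Cd5l (0.99).

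Monocyte markers (7 genes) had mean levels of 8.25 to 8.84 in WT mice and of 8.94, 8.46 and 10.44 in p80HT mice, none of them rose, and 6 were highest on p80HT replicate 3; their leading genes Lyz2 and Itgam differed by 0.86 and 1.05. Conventional dendritic cell markers (8 genes) lay at 8.59 to 8.76 in WT mice and 8.86, 8.65 and 8.97 in p80HT mice, with none past the threshold. The genes of highest mean in this list, Ccr7 and Itgax, differed by -0.95 and 1.31. Without p80HT replicate 3 Itgax rose (0.83), 1 of the 8 genes against 2.01% of all genes, and Ccr7 differed by -0.26. Ccr7 was at 13.10 to 13.23 in WT mice and at 12.97, 12.82 and 10.80 in p80HT mice, and which cells it came from was not tested. Plasmacytoid dendritic cell markers (8 genes) lay at 9.05 to 9.15 in WT mice and 8.95, 9.02 and 9.51 in p80HT mice, with none past the threshold. In 4 of the 8 every p80HT array was below every WT array, against 11.9% of all genes, and in 0 above, against 8.86%. Their leading genes Tcf4 and Irf7 differed by 0.11 and 0.74, and by 0.28 and 0.13 without p80HT replicate 3. T cell markers (11 genes) lay at 8.30 to 8.64 in WT mice and 9.37, 9.19 and 10.81 in p80HT mice. Of them 4 rose, against 1.22% of all genes: Cd3e (1.74), Cd3g (2.03), Cd5 (1.10) and Cd28 (0.92). All 11 had every p80HT array above every WT array, which 8.86% of all genes showed. Without p80HT replicate 3, 9 of the 11 rose, against 2.01% of all genes, and 9 passed the adjusted p, against 4.67%. The median of the 11 was then 0.79. The part of these cells in the values of Csf2rb, Csf2rb2, Csf2ra, Csf1r and Csf1 was not tested.

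Mast cell and basophil markers (10 genes), from cells that use KIT and the β chains, had mean levels of 6.64 to 6.78 in WT mice and 7.32, 7.20 and 7.23 in p80HT mice. This even p80HT level averaged genes that went opposite ways. Mcpt8 was at 8.22, 8.13 and 6.06 in p80HT replicates 1, 2 and 3 and at most 6.69 in WT mice. Mcpt4 was at 5.90, 5.96 and 8.96 in the same p80HT arrays and at most 5.87 in WT mice. None rose with all arrays. Without p80HT replicate 3, 4 rose, against 2.01% of all genes: Mcpt8 (1.57), Cpa3 (1.00), Ms4a2 (0.63) and Prss34 (1.07). Hdc and Gata2, the markers with the highest means in this list, differed by -0.14 and 0.20, and by 0.50 and 0.31 without that array. Blood stem and progenitor cell markers (7 genes) lay at 7.41 to 7.51 in WT mice and 7.46, 7.48 and 8.05 in p80HT mice. Of the 7, 5 differed by more than 0, such as Cd34 (1.27, and 0.24 without p80HT replicate 3), with a median of 0.20. Slamf1, the gene of highest mean in this list, fell (-0.96), the 1 of the 7 that did, against 0.968% of all genes. It was at 10.16 to 10.40 in WT mice, and which cells it came from was not tested. Eosinophil markers (5 genes) lay at 7.97 to 8.13 in WT mice and 8.35, 8.33 and 7.22 in p80HT mice. Il5ra is itself in this list, which it leads before Siglecf (0.03), so the level of the list is no separate reading beside Il5ra. The neutrophil granule genes Elane and Mpo were at 10.14 and 10.58 on p80HT replicate 1 and at 10.00 and 10.27 on replicate 2, against at most 8.42 and 8.81 in WT mice, and rose without replicate 3. They were the 2 of 12 neutrophil markers that did, against 2.01% of all genes. Erythroid genes (8) had mean levels of 7.61 to 7.76 in WT mice and 8.44, 8.61 and 7.80 in p80HT mice. With all arrays 2 rose, Slc4a1 (1.65) and Alas2 (1.30), against 1.22% of all genes, and Tfrc, the 1 lower gene, differed by -0.36. Without p80HT replicate 3, 5 rose, against 2.01% of all genes: Slc4a1 (2.15), Alas2 (1.06), Rhag (1.81), Klf1 (0.74) and Gata1 (0.70). How far these cells enter the values of Kit, Flt3 and Il5ra was not tested. Among the markers, Cr2, Fcer2a, Adgre1, Vsig4, Cd5l, Cd5, Cd28, Cd34, Rhag, Klf1, Gata1, Mcpt8, Mcpt4, Cpa3, Ms4a2, Prss34, Elane, Mpo and Alas2 were named after their values were seen.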

How the data were processed

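The authors ran RNA of B220-selected splenic B cells from 3 p80HT and 3 WT mice on Affymetrix Mouse Gene 1.0 ST arrays and deposited log2 probeset signals made with RMA in Partek Genomics Suite, per the labels. Software versions, settings and the annotation release are not given in the sources used here. RMA corrects background, quantile-normalizes the arrays and summarises probes, so overall shifts between arrays are largely removed. The deposited log2 values ran from 3.07 to 14.8, with array medians of 7.68 to 7.81. Arrays give no read depth, and the number of arrays limits the precision.

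Of 28853 probesets, 21789 carried 1 gene symbol in the platform table, 1621 several and 5443 none. The first were used, and the probeset of highest mean signal on the 6 arrays stood for each of 19938 genes (a choice among several for 999, none of them among the 10 genes described). Groups and replicate numbers came from the sample titles, and nothing in the labels pairs the mice. p80HT was compared with WT by the moderated test of limma 3.58.1 under R 4.3.3 (lmFit, then eBayes, 2-sided, no block), with Benjamini-Hochberg adjustment over all genes. An exact permutation test on 1 gene could reach no p under 0.10 with 3 arrays a group. The limma calls were tried on simulated data. Their noise was set without p80HT replicate 3, so the wider spread that this array brings was not covered. Tables were made with Python 3.11.15 and pandas 2.3.3, figures with matplotlib 3.10.9.

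The 10 genes, the pathway lists and the marker lists were chosen with earlier results of these data known. Named were every one of the 10 genes, the genes of a pathway list past the threshold with up to 3 others in list order, the markers with the 2 highest means in lists described, and the 5 genes most like Csf2rb by Pearson r. Other genes were named after their values were seen: the remaining partner genes, Il2ra, Junb, Cebpe, Gata1, Runx1, Gab2, Ptpn11, Syk, Ptpn6, Cbl, Sh2b3, the chromosome 15 neighbours and further markers. Alternatives were leaving out each array, the replicate number as a block, ordinary analysis of variance as in the methods, an intensity trend in the prior variance, median centring, the mean of a gene's probesets, 2 filters on dim genes, and an adjusted p under 0.05 as the threshold.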

Additional observations from a re-analysis of the deposited data

How the results depend on the processing

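Of the 10 genes, 1 passed the threshold with all arrays, 1 to 3 when single arrays were left out (Csf2rb, Csf1r and Csf1 without p80HT replicate 2, Csf2rb and Kit without p80HT replicate 3), and 0 at an adjusted p under 0.05; none was lower under any alternative. Csf2rb chose the family, so its calls support nothing. Nothing in the labels pairs the mice by replicate number. Deviations from the group means correlated by 0.07, -0.24 and 0.07 for numbers 1, 2 and 3, which cannot show whether mice were paired. With the replicate block 2 of the 10 genes were higher (Csf2rb and Csf1r), as were 2 pathway genes, and 2 pathway genes were lower. For the pathway lists, 1 gene was higher and 1 lower with all arrays, 1 to 5 higher and 1 to 3 lower without single arrays, and 0 in either direction at the adjusted p. The Csf2rb minus Csf2rb2 change ran from 0.25 to 0.94 without single arrays. Signs turned for Csf3r (-0.25 to 0.46 without single arrays, and -0.11 without WT replicate 1), Csf3 (-0.018 to 0.20 without single arrays, and -0.0092 with arrays centred on their medians) and Csf2 (-0.11 to 0.16 without single arrays, and 0.025 without WT replicate 3). Over all genes, 119 were higher and 77 lower by ordinary analysis of variance, 183 and 342 with centring, 363 and 204 with the block, and without single arrays 137 to 401 were higher and 69 to 290 lower. The cause of these shifts was not tested. Csf2 was below both filters on dim genes, Csf3 below the median gene.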
